A study of Homo sapiens with 4 samples.

Results

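Nuclear receptor coregulators were followed in the human 22Rv1 line, derived from castration-resistant prostate cancer, after OCT1 was targeted with an siRNA. The set held 9 genes: PNRC1, PNRC2, NRIP1, NCOA1, NCOA2, NCOA3, NCOA4, NCOR1 and MED1. PNRC1 and NRIP1 were selected on their higher signal with siOCT1 in these same arrays, so their siOCT1 differences are descriptions with no test. The other members were listed as p160 coactivators, corepressors and partner coregulators. A probe set carried the symbol of 7 of the 9 genes, out of 17687 named genes, and the signals of NCOA3 and NCOR1 were not analysed here. All 7 counted as measured, a filter that 8843 genes passed by having their highest value above 6.51 on the log2 scale. On each array, negative control probe sets gave a background at their 95th percentile, and 6 of the 7 genes exceeded it on all 4 arrays. These backgrounds ran from 6.62 to 7.39, above the filter's cut, so a measured gene can lie below background on every array.

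Total RNA was hybridised to 4 whole-transcript arrays, 1 for each group. The groups were siOCT1 with DHT, siOCT1 with vehicle, siControl with DHT and siControl with vehicle. All cells had been kept in serum stripped with charcoal and dextran, were transfected with siOCT1 or a control siRNA (siControl) 48 h before hormone, and then received 10 nM dihydrotestosterone (DHT) or ethanol vehicle for 24 h. The series addresses the effects of OCT1 knockdown in this line, and crossing siRNA with ligand lets the DHT difference be set out under each siRNA. Replicates are lacking, so every difference rests on single arrays and their number sets the precision. The transcript of OCT1 itself was not analysed here, so siOCT1 stands for the transfection as labelled. A bulk array cannot tell fewer transcripts per cell from fewer cells that carry them.

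Nuclear receptors are ligand-activated transcription factors, and the androgen receptor drives growth of prostate cancer cells. On DNA they recruit coregulators: coactivators of the p160 family bring acetyltransferases and arginine methyltransferases, Mediator links the receptor to RNA polymerase II, and corepressors bring histone deacetylases. PNRC1 and PNRC2 are small proline-rich proteins that bind nuclear receptors, and PNRC2 also bridges the nonsense-mediated decay factor UPF1 to the decapping machinery.

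PNRC1 and NRIP1 were the members with higher signal under siOCT1 that led to the choice of this set, and PNRC2 is the paralog of PNRC1 whose signal stayed level. The 250 bases before the annotated start of each are therefore shown, from RefSeq on GRCh38.p14, in the direction of transcription. They lie at chr6:89080501-89080750 on the plus strand for PNRC1, chr21:15065937-15066186 on the minus strand for NRIP1 (the most upstream of 3 annotated starts) and chr1:23959578-23959827 on the plus strand for PNRC2. Capitals mark CCAAT boxes (CCAAT or ATTGG) and GC boxes (GGGCGG or CCGCCC).
PNRC1: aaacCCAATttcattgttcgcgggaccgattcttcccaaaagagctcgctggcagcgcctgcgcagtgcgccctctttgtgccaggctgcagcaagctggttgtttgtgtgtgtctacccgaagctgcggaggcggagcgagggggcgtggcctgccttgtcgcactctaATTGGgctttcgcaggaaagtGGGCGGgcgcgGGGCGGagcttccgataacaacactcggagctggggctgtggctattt
NRIP1: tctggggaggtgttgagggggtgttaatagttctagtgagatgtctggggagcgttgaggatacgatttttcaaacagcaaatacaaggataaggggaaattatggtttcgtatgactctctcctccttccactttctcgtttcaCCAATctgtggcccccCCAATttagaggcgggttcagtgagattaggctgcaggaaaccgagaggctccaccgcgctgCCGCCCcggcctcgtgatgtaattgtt
PNRC2: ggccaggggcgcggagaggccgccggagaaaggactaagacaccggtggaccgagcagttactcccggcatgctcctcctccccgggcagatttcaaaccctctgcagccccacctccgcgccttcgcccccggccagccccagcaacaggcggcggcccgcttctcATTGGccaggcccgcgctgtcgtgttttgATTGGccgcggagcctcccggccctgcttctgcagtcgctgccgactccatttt

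Each motif was searched on both strands of 14 upstream windows of 8 members, and a match is a description of letters only. These 8 include NCOA3 and NCOR1, which have no array signal here, and the upstream sequence of NCOA2 was not analysed here. The octamer ATGCAAAT, the core motif known for OCT1, was in none of the 14 windows, and 1.63% of 35116 windows of this length held it. The androgen response half-site AGAACA was in none of the 14, with 12.4% of all windows. The cyclic AMP response element TGACGTCA was also in none, with 1.65% of all windows. A CCAAT box was in 5 of the 14 windows, against 11240 of the 35116. A GC box was in 7 of the 14, against 42.6% of all windows. The printed PNRC1 and NRIP1 windows held both kinds of box, and the PNRC2 window held CCAAT boxes alone. GC content was 60.8% for PNRC1, 50.8% for NRIP1 and 68.4% for PNRC2, beside a median of 58% over all windows.

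PNRC1, a coactivator that contacts nuclear receptors, was the member with the widest range over the arrays. Its log2 signal was 14.88 with siOCT1 and DHT, 14.79 with siOCT1 and vehicle, 10.55 with siControl and DHT and 11.07 with siControl and vehicle. Both siOCT1 arrays lay far above both siControl arrays, and the siRNA groups did not overlap. The siOCT1 difference was 4.32 in DHT and 3.73 in vehicle on the log2 scale, or 20.0-fold and 13.2-fold. Its mean difference was number 8 from the top among 8843 measured genes. DHT minus vehicle was 0.09 in siOCT1 cells and -0.51 in siControl cells, beside median sizes of 0.32 and 0.36 over all measured genes.

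PNRC2, its paralog and a decapping partner, was nearly level. It stood at 12.62 with siOCT1 and DHT, 12.71 with siOCT1 and vehicle, 12.82 with siControl and DHT and 12.60 with siControl and vehicle. The range of 0.22 over all 4 arrays was wider than that of only 2.35% of measured genes, against 99.2% for PNRC1. The siRNA groups overlapped, with differences of -0.20 in DHT and 0.12 in vehicle (adjusted p = 0.904 in the additive limma fit with Benjamini-Hochberg adjustment). The difference between the paralogs was not tested.

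**Figure D1:**
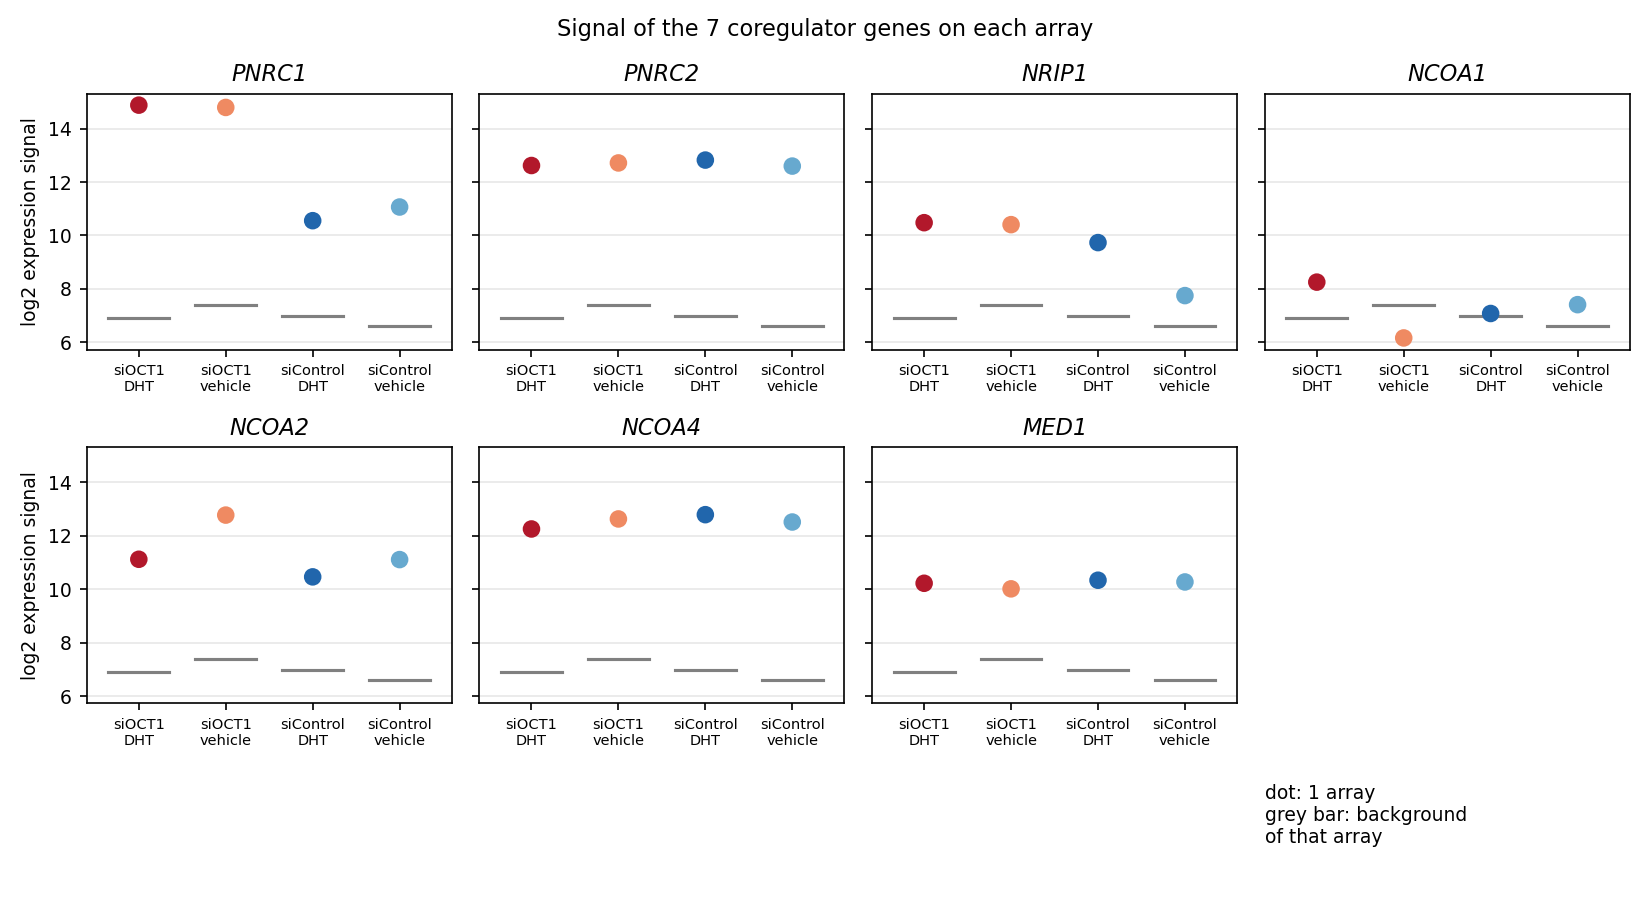
Log2 expression signal of the 7 genes (vertical axis) on each of the 4 arrays (horizontal axis). Each dot is 1 array and grey bars give the background of that array. PNRC1 lies near 14.8 on both siOCT1 arrays and at 10.55 and 11.07 on the siControl arrays, NRIP1 is lowest with siControl and vehicle at 7.75, and NCOA1 drops below background with siOCT1 and vehicle.

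NRIP1 (RIP140), a corepressor that binds liganded receptors and recruits C-terminal binding proteins and histone deacetylases, had a different layout. Its signal was 10.48 with siOCT1 and DHT, 10.41 with siOCT1 and vehicle, 9.73 with siControl and DHT and 7.75 with siControl and vehicle. The siControl vehicle array stood alone at the bottom, and the other 3 arrays lay within 0.75 of each other. The siOCT1 difference was therefore 0.75 in DHT and 2.66 in vehicle, or 1.68-fold and 6.30-fold. Its mean of 1.70 was higher than that of 97.8% of measured genes.

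The same layout appears in the DHT differences of NRIP1, which use the same 4 values. DHT minus vehicle was 0.07 in siOCT1 cells and 1.98 in siControl cells, or 1.05-fold and 3.96-fold. The additive limma fit did not call the DHT effect, with a mean of 1.03 and a Benjamini-Hochberg adjusted p of 0.375, and 0.207 to 0.514 over 9 alternative fits. The response in siOCT1 cells minus that in siControl cells was -1.91, larger in size than for 98.8% of measured genes, and it has no test. The siControl vehicle array was alone the lowest by at least 1.5-fold for 5.97% of measured genes. That share was 6.91% for siOCT1 with vehicle, 4.59% for siControl with DHT and 2.77% for siOCT1 with DHT. The part of such single-array values in the NRIP1 result was not tested.

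The p160 coactivators dock on liganded receptors and recruit acetyltransferases such as CREBBP. NCOA2 (TIF2) stood at 11.12 with siOCT1 and DHT, 12.78 with siOCT1 and vehicle, 10.46 with siControl and DHT and 11.11 with siControl and vehicle. The siOCT1 vehicle array was highest by 1.65, and the siRNA groups were separated by only 0.01, between siOCT1 with DHT and siControl with vehicle. In the additive limma fit NCOA2 rose with siOCT1, by 0.66 in DHT and 1.67 in vehicle, with a mean of 1.16 ± 0.30 (SE) and a Benjamini-Hochberg adjusted p of 0.0346. The adjusted p ran from 0.00703 to 0.0595 over 9 alternative limma fits, and 3 of them did not call it: 0.0569 without the filter, 0.0548 with values raised to background and 0.0595 without the intensity trend.

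NCOA2 was also the member with lower signal in DHT under both siRNAs. DHT minus vehicle was -1.65 in siOCT1 cells and -0.65 in siControl cells, or 3.15-fold and 1.57-fold lower. With arrays centred on positive controls it no longer reached 1.5-fold under both siRNAs. The mean of -1.15 was below that of all but 1.68% of measured genes. The additive limma fit did not call it, with a Benjamini-Hochberg adjusted p of 0.168 (0.0687 to 0.293 over 9 alternative fits).

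NCOA1 (SRC-1) was the dimmest member relative to background. Its signal was 8.25 with siOCT1 and DHT, 6.16 with siOCT1 and vehicle, 7.08 with siControl and DHT and 7.41 with siControl and vehicle. The siOCT1 vehicle value lay below that array's background of 7.39, and the siControl DHT value lay just above its background of 6.99. The siOCT1 difference was 1.17 in DHT, or 2.26-fold higher, whereas in vehicle NCOA1 was at least 1.01-fold lower, a bound set by background. DHT with siOCT1 gave at least 1.81-fold higher signal, and DHT with siControl gave -0.33. The additive limma fit called neither effect, with Benjamini-Hochberg adjusted p of 0.969 for siOCT1 and 0.528 for DHT.

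NCOA4 (ARA70), which binds the androgen receptor and also delivers ferritin to lysosomes, stood at 12.26 with siOCT1 and DHT, 12.63 with siOCT1 and vehicle, 12.79 with siControl and DHT and 12.52 with siControl and vehicle. The siRNA groups overlapped, and the siOCT1 difference was -0.54 in DHT and 0.11 in vehicle. MED1, the Mediator subunit that contacts nuclear receptors directly, stood at 10.22 with siOCT1 and DHT, 10.02 with siOCT1 and vehicle, 10.34 with siControl and DHT and 10.27 with siControl and vehicle. Both siOCT1 values of MED1 were lower than both siControl values, with differences of -0.11 in DHT and -0.26 in vehicle, and its range was wider than that of 5.69% of measured genes. The additive limma fit called neither gene for siOCT1, with Benjamini-Hochberg adjusted p of 0.560 for NCOA4 and 0.612 for MED1. For DHT the adjusted p was 0.953 for NCOA4 and 0.859 for MED1.

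Across the set, a difference counted by size when it reached 1.5-fold in the same direction in both pairs of arrays. Of the negative control probe sets, 18.6% passed this rule for siOCT1 and 14.7% for DHT, so passing it is not by itself a sign of a change. By this rule 3 of the 7 genes (PNRC1, NRIP1 and NCOA2) were higher with siOCT1, and 0 were lower. The background shares of measured genes were 12.2% higher and 18.7% lower, and nothing is read from the count, since 2 of the 3 were chosen on this contrast. Of the 5 members not chosen on it, the additive limma fit called 1 as risen (NCOA2) and 0 as fallen, with 1 at an unadjusted p under 0.05. It called 9.1% of measured genes as risen and 15.3% as fallen. The median difference of the 7 members, PNRC1 and NRIP1 included, was 0.66 in DHT and 0.12 in vehicle, against -0.07 and -0.06 over all measured genes. Nothing is read from the member medians either, since PNRC1 and NRIP1 were chosen for high values on this contrast. The median of the mean differences of the 7 members was -0.04, against -0.06. That -0.04 is the value of NCOA1, whose mean was 0.42 with values raised to background. The members just inside and just outside 1.5-fold were NCOA2 in DHT at 0.66 and NCOA4 in DHT at -0.54.

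**Figure D2:**
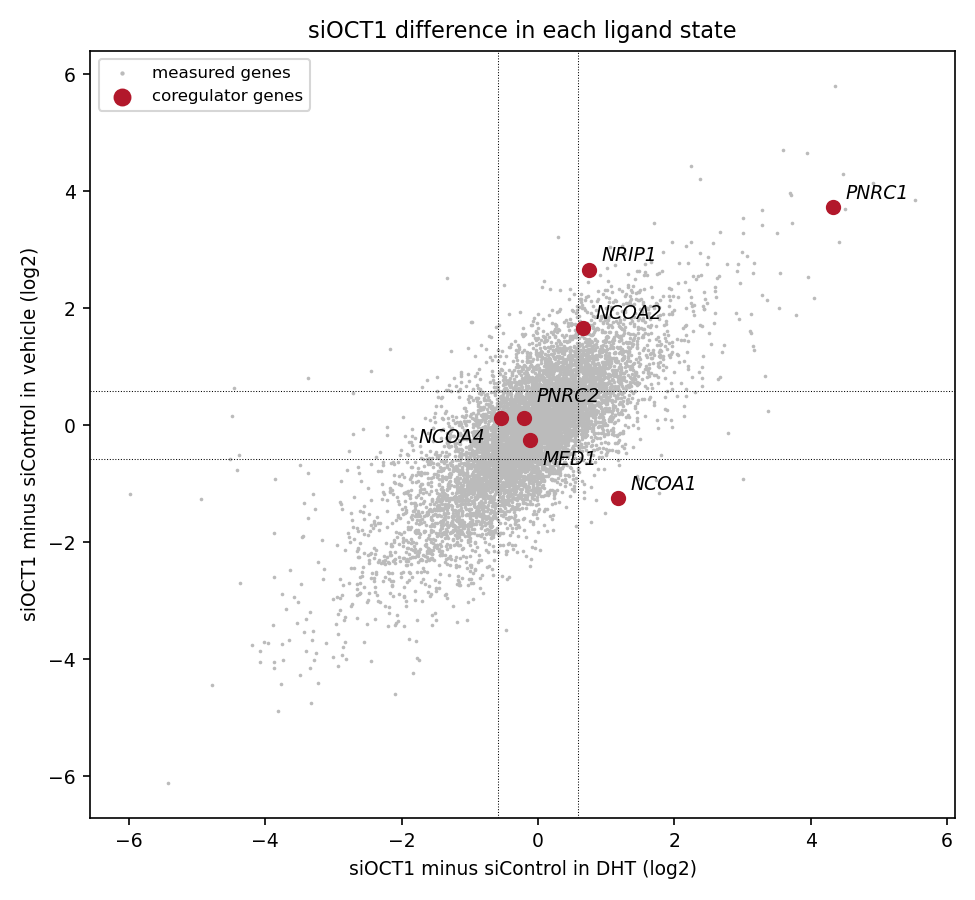
Difference siOCT1 minus siControl in DHT (horizontal axis, log2) against that in vehicle (vertical axis, log2) for 8843 measured genes in grey and the 7 coregulator genes in red. Dotted lines mark 1.5-fold. PNRC1 lies at 4.32 and 3.73, NRIP1 and NCOA2 are larger in vehicle than in DHT, and NCOA1 lies apart at 1.17 and -1.25.

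With DHT in the medium, 0 of the 7 genes were higher by 1.5-fold under both siRNAs and 1 (NCOA2) was lower, beside 4.86% and 4.37% of measured genes. The additive limma fit called 0 of 7 in either direction, with 1 gene (NCOA2) at an unadjusted p under 0.05, and it called only 0.679% of measured genes as risen and 0.305% as fallen. The median DHT difference of the 7 genes was 0.07 in siOCT1 cells and 0.06 in siControl cells, against 0.02 and -0.03 over all measured genes. The response in siOCT1 cells minus that in siControl cells passed 1.5-fold for 5 of the 7 genes, beside 35.5% of measured genes, and none of these values has a test. They were 2.42 for NCOA1, -1.91 for NRIP1, -1.01 for NCOA2, -0.65 for NCOA4 and 0.60 for PNRC1. The value of PNRC1 was 0.39 with arrays centred on positive controls and 0.54 with loess centring, both under 1.5-fold, which left 4 of the 7 genes under each setting. The value of NCOA1 was 0.88 with values raised to background. The siOCT1 and DHT differences share the same 4 arrays.

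**Figure D3:**
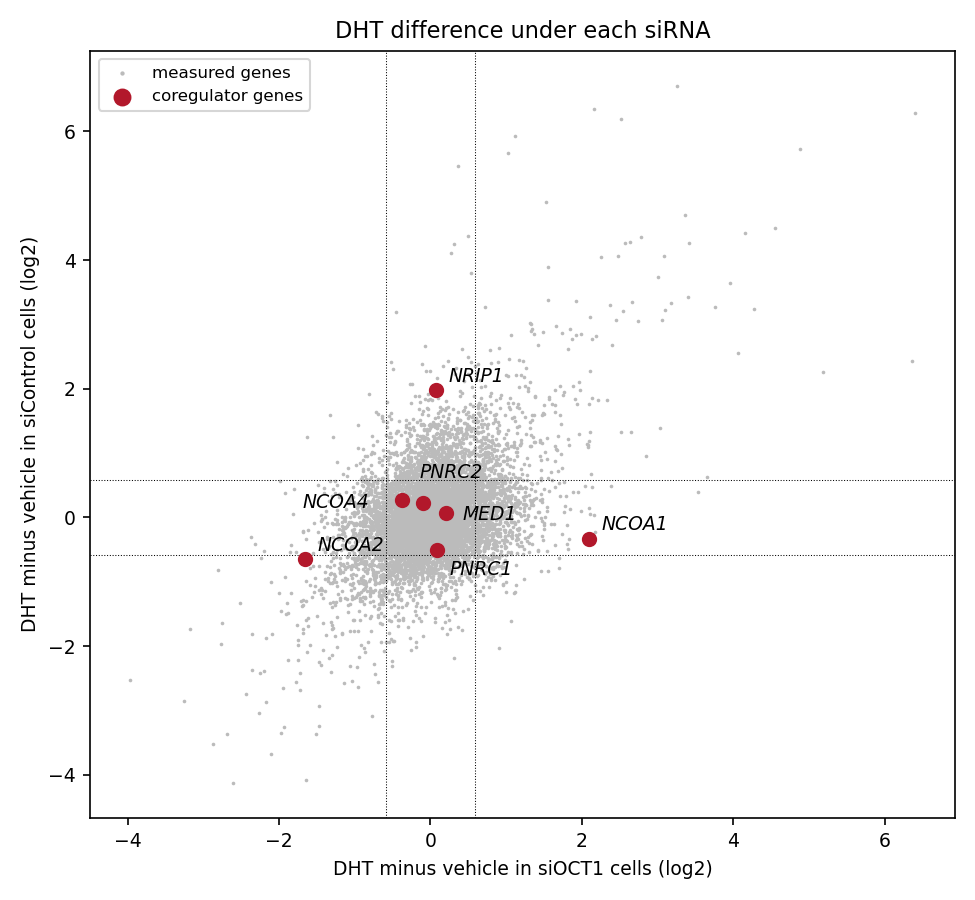
Difference DHT minus vehicle in siOCT1 cells (horizontal axis, log2) against that in siControl cells (vertical axis, log2) for 8843 measured genes in grey and the 7 coregulator genes in red. Dotted lines mark 1.5-fold. NRIP1 lies at 0.07 and 1.98, NCOA1 at 2.09 and -0.33, and NCOA2 is below 0 on both axes.

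The genes nearest to PNRC1 and NRIP1 in pattern were found by the smallest Euclidean distance between the 4 log2 values, each gene centred on its own mean, among 8843 measured genes. For PNRC1 these were ARHGAP29 (distance 0.50), CDH18 (0.53), ABCA1 (0.71), SATB1 (0.72) and SP110 (0.77). ARHGAP29 alone of these lay above background on all 4 arrays, and the other 4 lay below it on both siControl arrays. ARHGAP29 stood at 11.76 with siOCT1 and DHT, 12.28 with siOCT1 and vehicle, 8.04 with siControl and DHT and 8.34 with siControl and vehicle.

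For NRIP1 the nearest genes were ZNF711 (0.34), JMJD1C (0.34), PCDHB2 (0.34), SOX4 (0.36) and ZNF737 (0.38), each above background on all 4 arrays. SOX4, a transcription factor, stood at 13.90 with siOCT1 and DHT, 13.33 with siOCT1 and vehicle, 12.91 with siControl and DHT and 11.02 with siControl and vehicle. As for NRIP1, the lowest of the 4 values of each of these genes was that with siControl and vehicle, which follows from their choice by pattern.

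**Figure D4:**
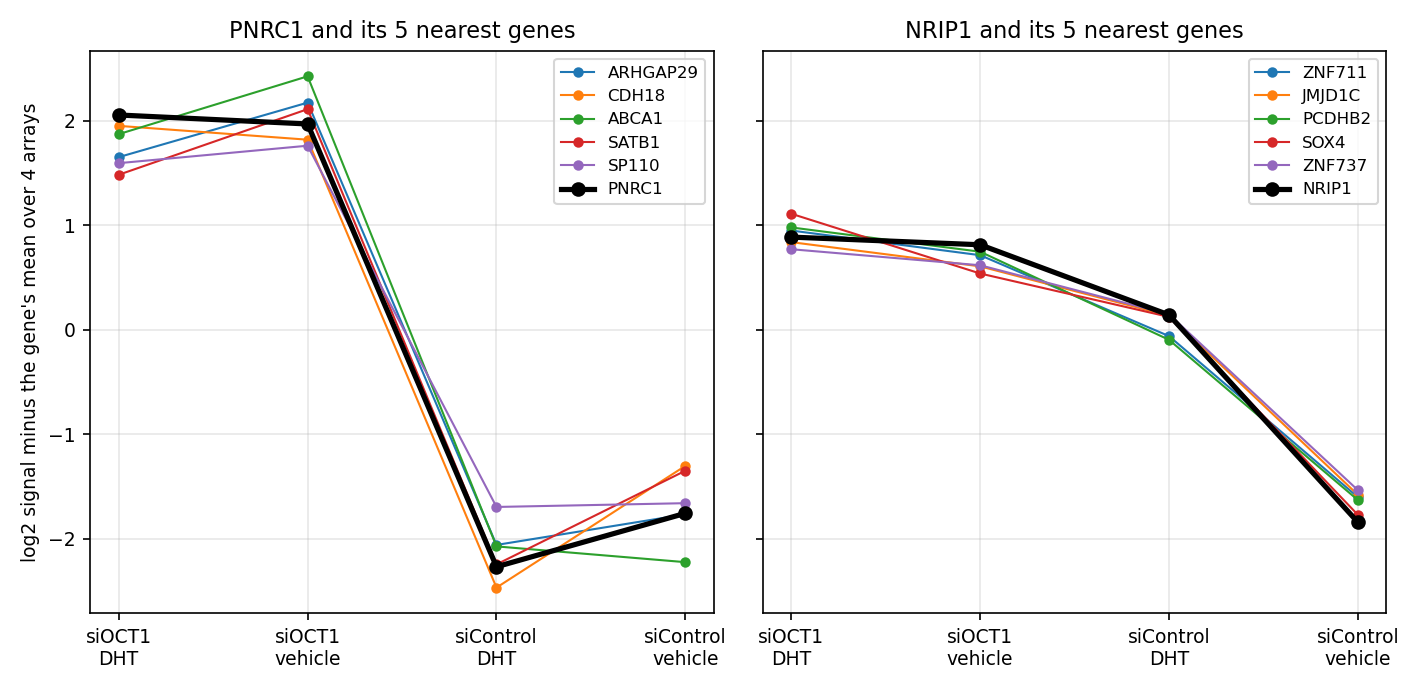
Log2 signal of each gene minus its own mean over the 4 arrays (vertical axis) on each array (horizontal axis), for PNRC1 (left) and NRIP1 (right) in black and the 5 nearest genes of each in colour. The PNRC1 group splits by siRNA, while the NRIP1 group has its lowest point with siControl and vehicle, both set by the choice of nearest genes.

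The wider coregulator machinery was examined through lists that leave out the 9 members. Of the corepressor complex genes, 11 were measured, 0 rose and 0 fell with siOCT1 in the additive limma fit (9.1% and 15.3% of all measured genes), and 4 had an unadjusted p under 0.05 (LCOR, TBL1XR1, TBL1X and HDAC2, the last named after its values were seen). The list's median difference was -0.32 in DHT and -0.38 in vehicle, against -0.07 and -0.06 over all measured genes. LCOR, a ligand-dependent corepressor, was at 8.80 and 8.83 with siOCT1 in DHT and vehicle, against 11.12 and 9.29 with siControl. TBL1XR1, which exchanges corepressors for coactivators, was lower with siOCT1 by 2.79-fold in DHT and 1.43-fold in vehicle. Its homolog TBL1X was higher by 1.69-fold and 1.49-fold. The limma adjusted p after Benjamini-Hochberg was 0.0590 for LCOR, 0.0600 for TBL1XR1 and 0.0963 for TBL1X.

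Among acetyl and methyl transferases and demethylases that act with the p160 proteins, 7 were measured and the additive limma fit called 0 for siOCT1, with 1 (KDM4C) at an unadjusted p under 0.05. CREBBP, the acetyltransferase recruited by p160 coactivators, differed by 0.78 in DHT and 0.17 in vehicle. KAT2A (GCN5), another acetyltransferase, differed by -0.35 and -1.12, and the demethylase KDM4C by 0.36 and 1.16. Of the other NCOA genes, NCOA5, NCOA6 and NCOA7 were measured and 0 were called, none with an unadjusted p under 0.05.

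Of 27 measured Mediator genes other than MED1, limma called 1 as risen with siOCT1 and 0 as fallen (9.1% and 15.3% of all measured genes), with 6 at an unadjusted p under 0.05. The gene that rose was MED13L, a subunit of the Mediator kinase module, at 12.59 and 12.79 with siOCT1 in DHT and vehicle, against 11.62 and 11.71 with siControl. Its differences of 0.97 and 1.08 gave a limma adjusted p of 0.0190 (Benjamini-Hochberg), and all 9 alternative fits called it. MED19 was higher with siOCT1 by 1.02 and 0.83. MED30 lay below background on both siOCT1 arrays and above it on both siControl arrays. As a bound it was at least 1.12-fold lower with siOCT1 in DHT, and in vehicle the backgrounds gave no bound. MED19 and MED30 had limma adjusted p of 0.0504 and 0.0601.

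Of 18 measured androgen receptor coregulators, limma called 1 as fallen and 0 as risen with siOCT1 (15.3% and 9.1% of all measured genes), with 6 at an unadjusted p under 0.05. BRCA1, a DNA repair protein that also binds the androgen receptor, fell with siOCT1. Both siOCT1 values lay below background, so the fall is a bound, at least 3.58-fold in DHT and 1.69-fold in vehicle (limma adjusted p of 0.00373, Benjamini-Hochberg). PIAS1, a SUMO ligase that binds the androgen receptor, was the 1 gene of this list that rose with DHT. Its signal in DHT and vehicle was 15.78 and 14.65 in siOCT1 cells, and 15.45 and 13.24 in siControl cells. The limma adjusted p of PIAS1 was 0.0477 (Benjamini-Hochberg), and 5 of 9 alternative fits did not call it, with a range of 0.000649 to 0.151.

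Of the nuclear receptors themselves, 23 of 38 with a named probe set were measured and 7 lay above background on all arrays. Below background on every array were 19 of the 38, among them ESRRG, RARA, PPARA and RORB, which still counted as measured. The androgen receptor was not analysed here. With siOCT1, limma called 2 as risen and 1 as fallen, beside 9.1% and 15.3% of all measured genes. At an unadjusted p under 0.05 there were 8 of the 23, among them ESRRG, which lay below background on every array. NR4A1, an orphan receptor, fell, with values of 7.81 and 6.43 with siOCT1 in DHT and vehicle, against 10.44 and 8.55 with siControl. Its limma adjusted p was 0.00366 (Benjamini-Hochberg), and the siOCT1 vehicle value lay below background. The glucocorticoid receptor NR3C1 rose, at least 1.05-fold in DHT and 3.03-fold in vehicle, with both siControl values below background. The retinoic acid receptor RARB also rose, by 1.26 in DHT, with both vehicle values below background. The limma adjusted p of NR3C1 was 0.272 and that of RARB 0.264 with values raised to background, the highest of 9 alternative fits.

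RARB was also the 1 nuclear receptor that limma called with DHT, beside 0.679% of all measured genes risen and 0.305% fallen. Under DHT its signal exceeded the vehicle background at least 6.03-fold in siOCT1 cells and at least 4.28-fold in siControl cells, with an adjusted p of 0.00945 (Benjamini-Hochberg). With values raised to background the adjusted p was 0.182, the highest of 9 alternative fits. NR2F1 was lower with DHT by 1.68 in siOCT1 cells and by 1.35 in siControl cells and was not called. NR4A1 was higher with DHT, at least 1.33-fold in siOCT1 cells and 3.71-fold in siControl cells. It was not called either (limma adjusted p of 0.0591). For DHT, 9 of the 23 measured receptors had an unadjusted limma p under 0.05, among them RARA, which lay below background on every array.

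PNRC2 works with decapping and nonsense-mediated decay factors, of which 14 were measured. With siOCT1 limma called 1 as risen and 2 as fallen, beside 9.1% and 15.3% of all measured genes. The decapping enzyme DCP2 fell, to 7.11 and 7.51 with siOCT1 in DHT and vehicle, against 9.28 and 8.65 with siControl, with an adjusted p of 0.0158 and all 9 alternative fits calling it. Its activator DCP1A, which binds PNRC2, fell as well, to below background on both siOCT1 arrays, at least 1.49-fold lower in DHT and 1.02-fold in vehicle. With values raised to background DCP1A was not called (limma adjusted p of 0.786). The helicase DDX6 rose by 0.73 and 0.98, with a limma adjusted p of 0.0371, and was not called in 2 of 9 alternative fits (0.0136 to 0.0673).

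NCOA4 delivers ferritin for breakdown, and 6 iron storage and release genes were measured. With siOCT1 limma called 3 as risen and 0 as fallen, beside 9.1% and 15.3% of all measured genes, and 4 had an unadjusted p under 0.05. The list's median difference was 0.75 in DHT and 0.58 in vehicle, against -0.07 and -0.06 over all measured genes. The iron exporter ferroportin (SLC40A1) rose, to 10.11 and 10.34 with siOCT1 in DHT and vehicle, against 7.74 and 7.39 with siControl, with a limma adjusted p of 0.00248. The ferritin light chain FTL rose by 1.23 and 1.47 (limma adjusted p of 0.00522), and ACO1, an iron-responsive RNA-binding protein, by 1.86 and 1.36 (limma adjusted p of 0.00994). The 4th gene, the transferrin receptor TFRC, named after its values were seen, was lower with siOCT1 by 0.50 in DHT and by 1.15 in vehicle, with a limma adjusted p of 0.0504. The iron transporter SLC11A2 was also lower, with differences of -0.59 and -0.43, and was not called. All 9 alternative fits called the 3 risen genes, while NCOA4 was called by 0 of 9. With DHT limma called 0 genes of the iron, decapping, Mediator, corepressor, acetyl and methyl transferase and other NCOA lists. At an unadjusted p under 0.05 there was 1 iron gene (ACO1) and 1 transferase gene (CREBBP), and 0 in the other 4 lists.

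**Figure D5:**
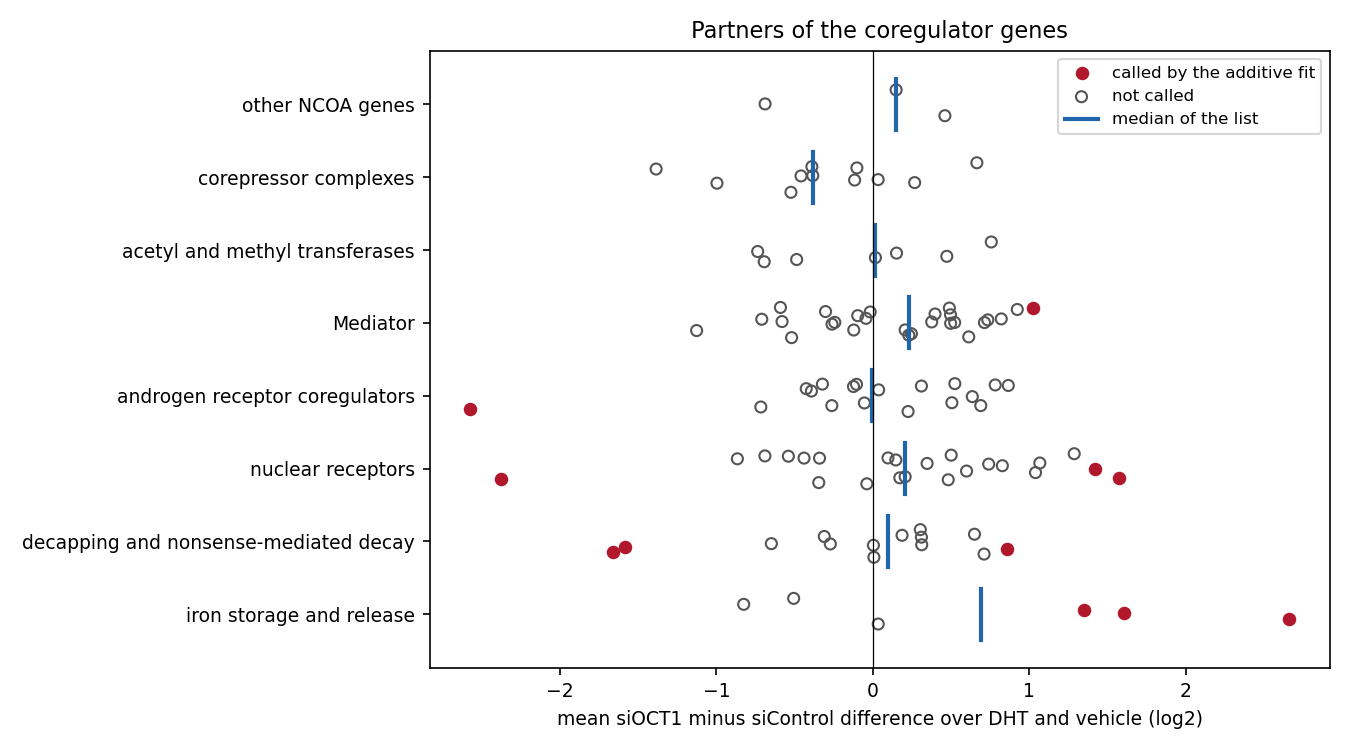
Mean difference siOCT1 minus siControl over DHT and vehicle (horizontal axis, log2) for the measured genes of 8 lists (vertical axis), without the 9 members. Filled red dots passed the additive limma fit, open dots did not, and blue bars are list medians. The risen iron genes are SLC40A1, ACO1 and FTL, and the risen Mediator gene is MED13L.

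The labelled cell type was checked by its markers. All 11 luminal prostate markers with a named probe set were measured, and FOXA1, HOXB13, EPCAM, KRT8, KRT18, CDH1, ESRP1 and FOLH1 lay above background on all arrays. KLK3 lay below background on both vehicle arrays and ACP3 on both DHT arrays. With siOCT1, limma called 2 of the 11 markers as risen (ESRP1 and FOLH1) and 2 as fallen (KRT8 and KLK2). The shares of all measured genes were 9.1% and 15.3%. KLK2 lay below background on both siOCT1 arrays and was not called with values raised to background (limma adjusted p of 0.249). KRT8 was not called in 3 of 9 alternative fits (limma adjusted p up to 0.0824). With DHT, limma called 0 of the 11 markers as risen and 1 (FOLH1) as fallen, beside 0.679% and 0.305% of measured genes. FOLH1 had a limma adjusted p of 0.0234 for DHT (Benjamini-Hochberg), and 7 of 9 alternative fits called it. ACP3 was lower with DHT, at least 2.32-fold in siOCT1 cells and 1.33-fold in siControl cells, and was not called. For DHT, 7 of the 11 markers had an unadjusted limma p under 0.05. The summed linear signal of the 11 markers was 119466 and 149538 with siOCT1 in DHT and vehicle, against 117679 and 92581 with siControl. Of 13 basal, stromal, endothelial and immune markers, 11 lay below background on every array, among them KRT5, VIM, PECAM1 and PTPRC. The summed linear signal of these 13 was 480.5 and 514 with siOCT1 in DHT and vehicle, against 353 and 334 with siControl. With 11 of them below background, this sum does not show a rise over the set. ACTA2 rose with siOCT1, to 7.37 and 7.76 in DHT and vehicle, against 5.90 and 5.62 with siControl. It exceeded background with siOCT1 only. Its limma adjusted p was 0.0155 (Benjamini-Hochberg), and 0.481 with values raised to background. COL1A2 exceeded background with siControl and vehicle only, at 6.63 against 6.62. With siControl and DHT it was at 6.77, against that array's background of 6.99. The part of these marker shifts in the results above was not tested.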

How the data were processed

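Each array was deposited as log2 values. Per the submitters' processing notes, the authors ran RMA and Affymetrix Expression Console; their versions and the genome build are not given in the sources used here. The arrays have similar distributions after RMA, with probe set medians of 5.99 to 6.03, which hides any change in total RNA. Between 327 and 379 values per array exceeded 16, so the scale may be stretched, and each fold is one on the scale as deposited.

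Of 24351 probe sets, 17709 had 1 gene symbol, and for 20 of 17687 genes the brightest of several was used. Samples were grouped by their siRNA and ligand labels. Single-array differences passed by size at 1.5-fold. For all 8843 measured genes, siRNA and ligand entered as additive terms in limma 3.58.1 (R 4.3.3, eBayes with intensity trend), with Benjamini-Hochberg adjustment at 0.05. It has 1 residual degree of freedom, the siRNA-by-ligand difference, and a prior of 5.85, so its error is not a spread between cultures. The fit was tested on simulated data. Those data held no siRNA-by-ligand difference beyond noise, so that test cannot speak to such differences here. The words rose and fell mark genes that limma called. A fold with 1 value below background is given against that background.

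The members and lists were chosen with earlier results of these data known. All 9 members are named. Of each list, candidates were the up to 3 genes with the largest mean siOCT1 or DHT difference, besides called genes. KAT2B, KDM3A, CCNC, MED14, MED22, SRA1, SMG5, EDC3 and SMG9 met this rule and are not described. Other steps used Python 3.11.15, pandas 2.3.3 and statsmodels 0.14.6.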

Additional observations from a re-analysis of the deposited data

Results flagged for a closer look

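The deposited values of NCOA1 had opposite signs with siOCT1 in the 2 ligand states, at 1.17 on the log2 scale in DHT and -1.25 in vehicle. The siOCT1 vehicle value lay below background, so the vehicle side is bounded at only 1.01-fold lower, and it was -0.02 with values raised to background. A fall in vehicle is therefore not shown, and the difference between the ligand states was not tested.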

How the results depend on the processing

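No paired analysis was possible because each group holds 1 array. Under 2-fold in place of 1.5-fold, 1 member (PNRC1) in place of 3 was higher with siOCT1, 0 in place of 1 were lower with DHT, and 3 in place of 5 had a change of DHT response; over all genes the counts were 1292, 275 and 1202. The limma call of NCOA2 was lost (0 members risen) without the filter, without the intensity trend and when values were raised to background. NCOA2 was no longer lower with DHT under both siRNAs (0 members) with arrays centred on positive controls. The fit called 2158 genes for siOCT1, against 1405 with values raised to background, and 87 genes for DHT, against 57 without the filter, 30 without the trend, 9 with values raised to background, 158 with loess centring and 293 with positive control centring. Without the filter 5985 genes passed for the change of DHT response, and raising values to background left 501 genes by size for DHT. Of 115 recomputed member differences that had passed 1.5-fold, 110 moved by under 1.5 times, 5 by more and 0 changed sign. Part of the 110 could not move and says nothing on stability. The mean of probe sets left every member value unchanged, and raising values to background changed those of NCOA1 only. Of the 5, PNRC1 moved with positive control centring, and the rest were NCOA1 values raised to background. Signal near background limits NCOA1.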
